A study of Macaca fascicularis with 8 samples.

Results

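The nuclear genes for the respiratory chain and ATP synthase were compared between primed and dome-shaped embryonic stem cells (ESCs) of the cynomolgus monkey, Macaca fascicularis. Members were the rows of the deposited expression table whose best protein match, at 85% identity or more, was named as NADH dehydrogenase [ubiquinone], cytochrome b-c1 complex, cytochrome c oxidase subunit, succinate dehydrogenase or ATP synthase subunit. The row with the highest mean over the 8 libraries was kept for each protein. This gave 76 proteins from 117 of 33121 genes. Of these, 72 are encoded in the nucleus: 34 carry complex I names, 6 complex II, 6 complex III, 15 complex IV and 11 complex V. They comprise 65 subunits, 4 assembly factors and 3 related proteins (NDUFA4L2, COX7A2L and COX7A3). The other 4 names belong to mitochondrial DNA, against the label of the set, and are described apart.

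The study had 4 libraries of each type, all polyadenylated RNA of monkey ESCs. Primed cells were kept in the medium the labels call CESM, formed flat colonies and survived single cell passage poorly. Dome-shaped cells were kept in the medium called NHSMV, survived single cell passage well and formed domed colonies. That medium held knockout DMEM with AlbuMAXI, N2, insulin, glutamine, non-essential amino acids, β-mercaptoethanol, human LIF, bFGF, TGF-β1, vitamin C and the kinase inhibitors PD0325901, CHIR99021, SB202190, SB203580 and SP600125. Medium, colony shape and group coincide and cannot be told apart. Nothing in the labels says that the libraries of a group were separate cultures, so p-values measure only the spread between these libraries, which may be technical. The library titles carry a number after CES, whose meaning the labels do not give. It is the same in dome-shaped replicates 1 and 2, and the same in primed replicates 3 and 4. Primed replicate 1 shares it with dome-shaped replicates 1 and 2, and primed replicate 2 with dome-shaped replicate 3. Primed replicates 3 and 4 share it with dome-shaped replicate 4. The reported fit does not use this number. The titles of dome-shaped replicates 1 and 2 differ by P15 and P26. Every n = 4 below therefore counts libraries. In bulk RNA, fewer cells of a type and less RNA per cell cannot be told apart either.

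The respiratory chain passes electrons from NADH (complex I) and succinate (complex II) through coenzyme Q, complex III and cytochrome c to oxygen at complex IV. Complexes I, III and IV pump protons, and ATP synthase (complex V) lets them flow back to make ATP. Most subunits are encoded in the nucleus and imported, and a small catalytic set comes from mitochondrial DNA. Naive and primed pluripotent cells are known to differ in their use of respiration and glycolysis.

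Values are RPKM, read numbers scaled to gene length and library size, which allow levels of different genes to be compared per length. The steps between low values implied 14400000 to 18070000 reads per library. Dome-shaped replicate 4 stood apart: on the first principal component of all tested genes (49.4% of the variance) it scored 9.92, against 40.7 to 41.1 in the other dome-shaped libraries and -37 to -28.6 in the primed ones. Of 12 pluripotency markers, 11 were matched to a row and none of these was at 0; limma (adjusted p under 0.05) called 1 higher and 5 lower in dome-shaped cells. Their summed level was 3493 to 4150 RPKM in primed cells and 2311 to 3446 RPKM in dome-shaped libraries, with the highest dome-shaped value in replicate 4.

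Of the 72 nuclear members, 65 reached 1 RPKM in at least 4 libraries and were tested with limma on log2(RPKM + 1), with Benjamini-Hochberg adjustment over all 15597 genes that passed the same filter. At an adjusted p under 0.05, 7 members were called higher in dome-shaped cells and 2 were called lower. Over all genes tested, 6.38% were called higher and 7.96% lower, against 10.8% and 3.08% of the members, so most members were not called in either direction. The shares over all genes are the background for every count of calls given below, in members, lists and markers. The 7 higher members were NDUFA12, NDUFS4, NDUFA8, NDUFB5 and NDUFB3 of complex I, COX6B1 of complex IV and ATP5F1C of complex V. The 2 lower ones were NDUFB10 of complex I and ATP5F1D of complex V. The log2 fold changes of the members were small, from -0.76 to 0.43. Their median was 0.14, beside 0.03 over all genes tested, and 47 were above 0 and 18 below. Of all 15597 genes tested, 8301 were above 0 and 7296 below, the background for the later counts of signs. At an unadjusted p under 0.05, 22 members were higher and 4 lower; over all genes tested these shares were 16.2% and 15.4%, the background for each count at that threshold given below. Groups did not overlap for 18 members with dome-shaped libraries higher (27.7%, beside 11.5% of all genes) and for 4 with primed libraries higher (6.15%, beside 10.7%).

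**Figure D1:**
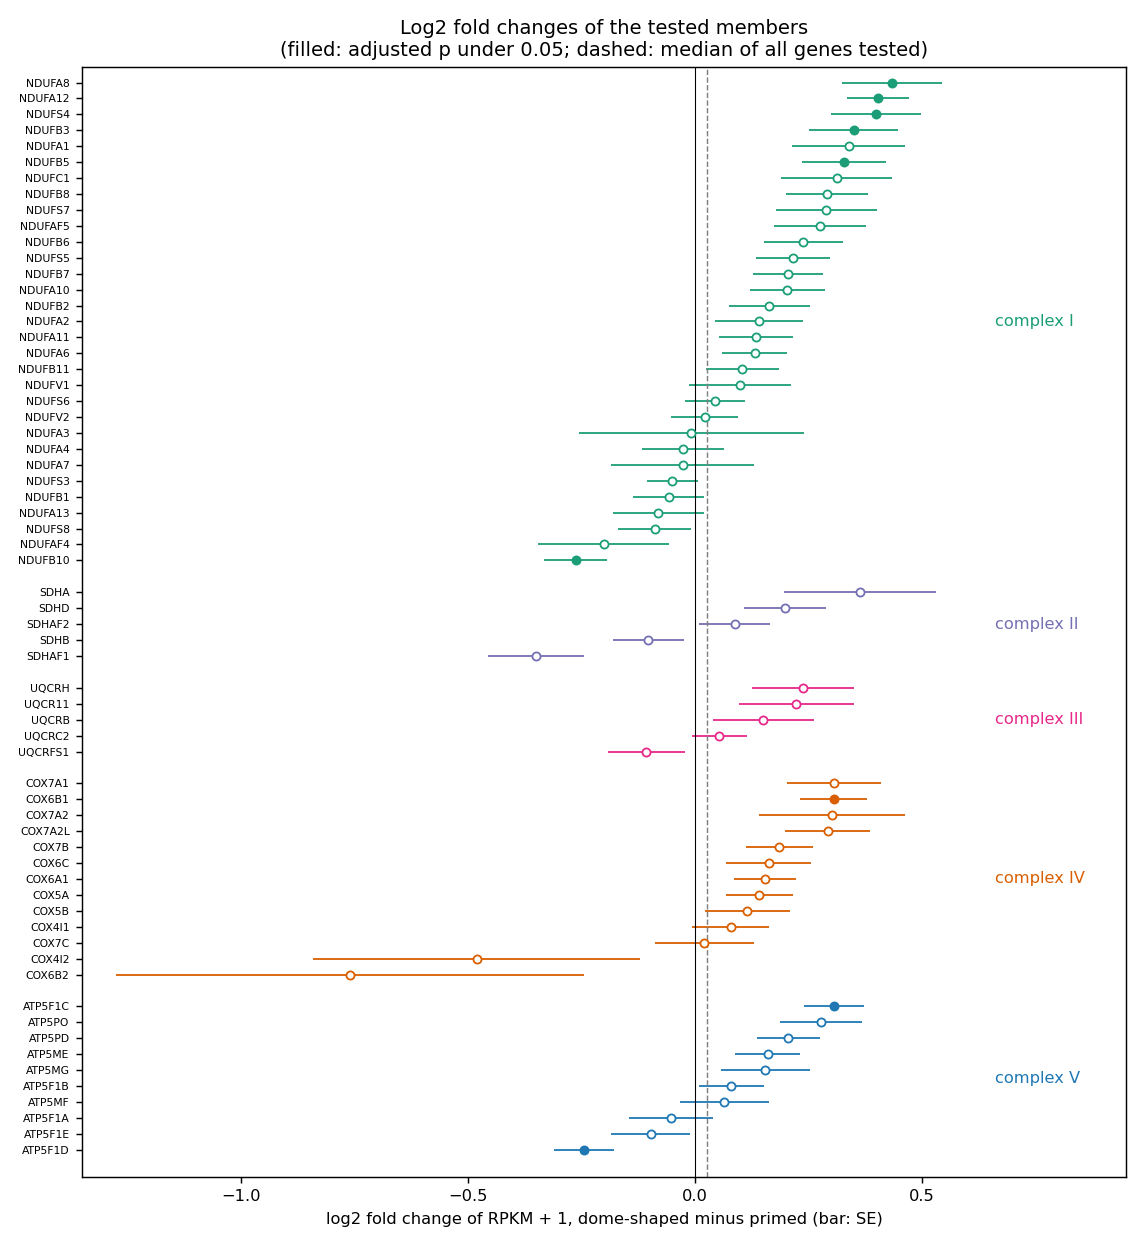
Log2 fold change of RPKM + 1 (dome-shaped minus primed) of 64 of the 65 tested nuclear members (1 is not shown), with the limma standard error as a bar, ordered within complexes I to V. Filled points have an adjusted p under 0.05 (7 right of 0, 2 left), and the dashed line is the median of all genes tested, 0.03; 47 points lie right of 0, and all but COX6B2 and COX4I2 between -0.35 and 0.43.

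Complex I had 32 tested members of 34, of which 5 were higher and 1 was lower, with a median log2 fold change of 0.14. The 6 called members are all accessory subunits, which surround the catalytic core without taking part in electron transfer. Of the 32 tested members, 24 are accessory subunits.

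NDUFA12 sits at the peripheral arm, near where NADH is oxidised. It stood at 88.3, 84.8, 87.6 and 85 RPKM in primed replicates 1 to 4 and at 125, 114, 115 and 106 RPKM in dome-shaped replicates 1 to 4. Every dome-shaped library lay above every primed library, and the means were 86.4 ± 1.79 and 115 ± 7.95 RPKM (SD, n = 4 each). The log2 fold change was 0.40 (SE 0.07, limma adjusted p = 0.00742). Among the 9 called members NDUFA12 alone passed the threshold under all 16 alternatives tried, with an adjusted p of at most 0.0296 when any 1 library was left out and of 0.036 with the number in the library titles as a block.

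NDUFS4, an accessory subunit of the same arm whose loss causes Leigh syndrome in people, was at 112, 103, 109 and 104 RPKM in primed libraries. The dome-shaped libraries held 168, 136, 145 and 119.6 RPKM. The groups did not overlap, and dome-shaped replicate 1 was the highest of all (log2 fold change 0.40, SE 0.10, limma adjusted p = 0.0296). Leaving out dome-shaped replicate 2 or 3, or primed replicate 2, 3 or 4, ended the call (adjusted p 0.063 to 0.0837) and with the block (adjusted p = 0.0912).

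NDUFA8, an accessory subunit on the intermembrane space side of the membrane arm, had 70.1, 76.0, 62.4 and 74.7 RPKM in primed libraries. In dome-shaped libraries it had 99.1, 107, 102 and 77.8 RPKM. Replicate 4 lay just above the highest primed library and the other dome-shaped libraries well above it. The log2 fold change of 0.43 (SE 0.11, limma adjusted p = 0.0319) was the largest positive one among the tested members. Without dome-shaped replicate 4 the adjusted p was 0.00588, whereas leaving out any of the other 7 libraries ended the call (0.058 to 0.0864), as did the block (0.0779) and dropping the filter on low values (0.0502).

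NDUFB3 and NDUFB5 belong to the membrane arm. NDUFB3 stood at 64.8, 68.3, 60.8 and 56.8 RPKM in primed cells and at 95.2, 76.3, 75.5 and 74.3 RPKM in dome-shaped libraries. Dome-shaped replicate 1 was far from the other dome-shaped values, which lay together just above the primed range (log2 fold change 0.35, SE 0.10, limma adjusted p = 0.0446). For NDUFB5 the values were 119, 112, 91.9 and 117 RPKM in primed cells and 143, 135, 128 and 145 RPKM in dome-shaped libraries. The groups were again separate, with primed replicate 3 the lowest of the 8 (log2 fold change 0.33, SE 0.09, limma adjusted p = 0.0445). Both calls were near the threshold: NDUFB3 lost it without any 1 library other than dome-shaped replicate 4 (adjusted p 0.056 to 0.109), and NDUFB5 without any 1 other than primed replicate 1 (0.0663 to 0.0965). With the block the values were 0.124 and 0.134, under median-of-ratios scaling 0.053 and 0.0664, and with no filter on low values 0.0645 and 0.0654.

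NDUFB10, also of the membrane arm, went the other way. It was at 158, 159, 149.8 and 156 RPKM in primed cells and at 132, 119, 125 and 142 RPKM in dome-shaped libraries. All primed libraries were above all dome-shaped ones, and dome-shaped replicate 4 was the nearest to them (log2 fold change -0.26, SE 0.07, limma adjusted p = 0.0356). The call was lost without dome-shaped replicates 2 or 3 or any 1 primed library (adjusted p 0.0629 to 0.104) and with the block (0.12).

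**Figure D2:**
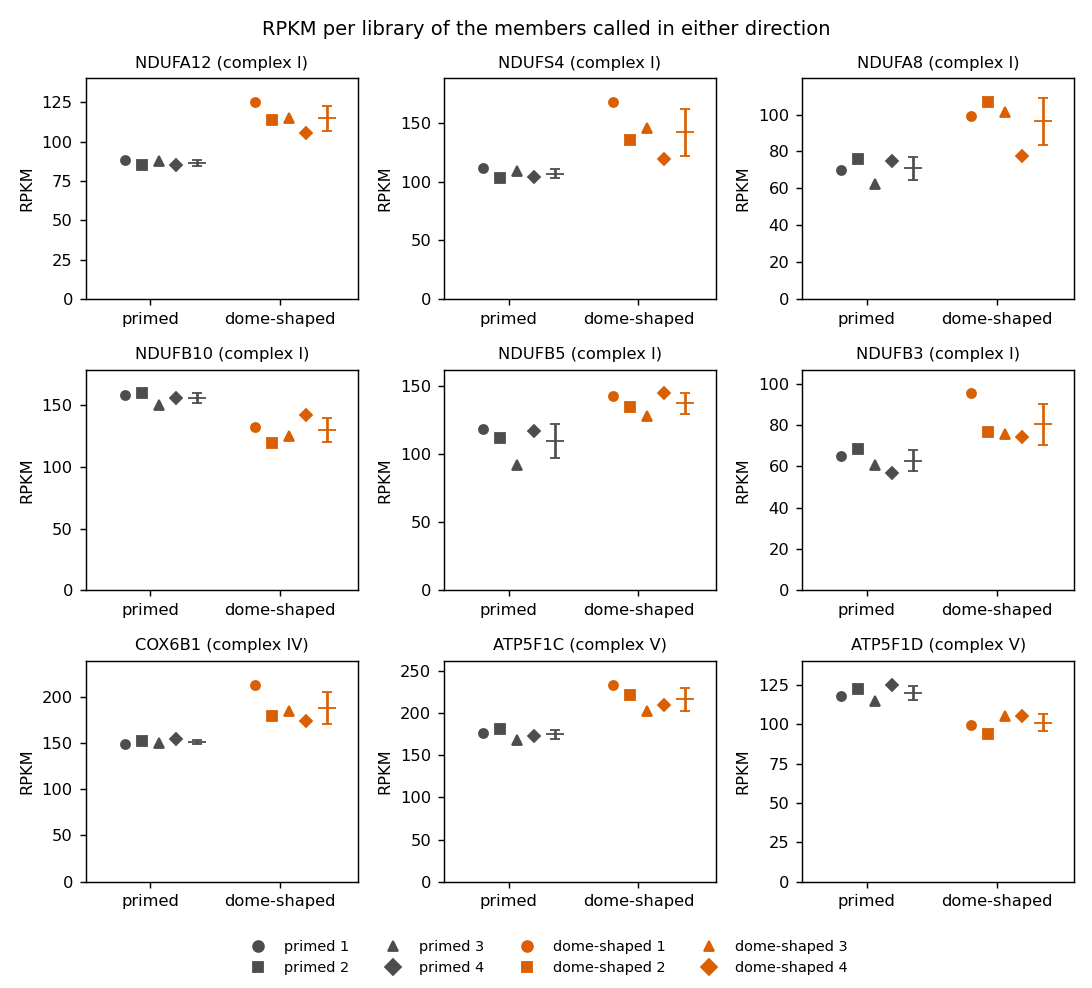
RPKM of the 9 called members in each library (y axis from 0), primed in grey and dome-shaped in orange, with 1 marker shape per replicate number and the mean and SD of each group (n = 4) at its right. The groups are separate in every panel, dome-shaped replicate 1 (circle) is the highest library for NDUFA12, NDUFS4, NDUFB3, COX6B1 and ATP5F1C, and NDUFB10 and ATP5F1D are lower in dome-shaped cells.

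The nuclear core subunits, which carry the flavin and the iron-sulfur clusters or line the coenzyme Q site, gave no call. Of the 6 tested, limma called 0 at the adjusted threshold; at an unadjusted p under 0.05, 1 was higher and 1 lower. NDUFS7, which carries the last iron-sulfur cluster before coenzyme Q, was at 54.1 ± 3.65 against 66.8 ± 10.8 RPKM (SD, n = 4 each; log2 fold change 0.29, SE 0.11, limma adjusted p = 0.112). The core median was -0.02, and that of the 24 tested accessory subunits 0.18, of which 18 were above 0. No test compared the core with the accessory subunits.

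Other complex I members are described by their levels. NDUFA4 and NDUFB1 had the highest mean levels under complex I names, 303 ± 29.5 and 259 ± 12.9 RPKM in primed cells and 297 ± 22.6 and 249 ± 22.7 RPKM in dome-shaped ones; NDUFA4 has since been assigned to complex IV. Neither passed the test (limma adjusted p = 0.87 and 0.649). NDUFA3 was the lowest tested member, at 0.577 to 2.54 RPKM over the 8 libraries, with 3 implied reads in the thinnest. NDUFA4L2, a hypoxia-responsive relative of NDUFA4, was below the filter at 0 to 0.26 RPKM in primed cells and 0.34 to 0.832 RPKM in dome-shaped libraries. NDUFA5 was listed at 0 in all 8. The assembly factors NDUFAF4 and NDUFAF5 were not called (limma adjusted p = 0.369 and 0.0991; unadjusted p under 0.05 for NDUFAF5, higher).

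Complex II, which is encoded wholly in the nucleus and also works in the TCA cycle, had 5 tested members of 6. Limma called 0 of them; at an unadjusted p under 0.05, 1 was lower and 0 higher. SDHB, the iron-sulfur subunit, was at 50.5, 48.0, 51.2 and 45.1 RPKM in primed cells and 49.2, 42, 44.1 and 45.8 RPKM in dome-shaped libraries. The groups overlapped (log2 fold change -0.10, SE 0.08, limma adjusted p = 0.396). SDHD, a membrane anchor, was at 52.3, 52.5, 51.6 and 50.9 RPKM in primed cells and 69.8, 51.9, 58.1 and 59.9 RPKM in dome-shaped libraries. Dome-shaped replicate 2 fell among the primed values and replicate 1 was the highest (log2 fold change 0.20, SE 0.09, limma adjusted p = 0.17). SDHD reads were spread over a second row under another name, and the sum of both rows was called higher (log2 fold change 0.28, limma adjusted p = 0.0405).

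SDHA, the flavin subunit, was represented by a fragment of 348 bases that matched 115 residues, so its level cannot be read as that of the gene. It held 6.2 to 10.4 RPKM in primed cells and 9.78 to 13.4 RPKM in dome-shaped libraries (log2 fold change 0.36, SE 0.17, limma adjusted p = 0.173). SDHC, the other anchor, was listed at 0 in 7 libraries under the name rule, but another row matched to the SDHC symbol held 232 ± 8.13 and 245 ± 8.73 RPKM (SD, n = 4; limma adjusted p = 0.39).

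The assembly factor SDHAF1, which helps to build the iron-sulfur clusters of SDHB, was the nearest to a call. It stood at 13.1, 12, 14.1 and 11.6 RPKM in primed cells and at 8.93, 9.58, 9.86 and 10.6 RPKM in dome-shaped libraries. The groups did not overlap (log2 fold change -0.35, SE 0.11, limma adjusted p = 0.0554). Of 16 alternatives, 2 called it: without dome-shaped replicate 4 the adjusted p was 0.0472, and with a filter of a mean of at least 5 RPKM it was 0.0492. Leaving out any other library gave 0.0818 to 0.134, and the block 0.159. SDHAF2, which attaches the flavin to SDHA, was at 49.9 ± 3.26 and 53.0 ± 3.25 RPKM (limma adjusted p = 0.48).

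Complex III had 5 tested members of 6, and limma called 0 of them, also 0 at an unadjusted p under 0.05. UQCRH, the hinge protein that contacts cytochrome c1, had the highest level, at 436, 394, 388 and 382 RPKM in primed cells and 562, 396, 431 and 514 RPKM in dome-shaped libraries. The groups overlapped, with dome-shaped replicates 1 and 4 above the rest (log2 fold change 0.24, SE 0.11, limma adjusted p = 0.181). UQCR11 and UQCRB, small supporting subunits, stood at 162 ± 27.6 and 126 ± 21.8 RPKM in primed cells and 188 ± 15.6 and 139 ± 4.54 RPKM in dome-shaped ones. Their adjusted p by limma was 0.258 and 0.389. UQCRFS1 carries the Rieske iron-sulfur cluster; its row bore the name of a Rieske-like copy, and reads may be split with the gene. UQCRQ was listed at 0 under the name rule, but another row matched to its symbol held 302 ± 27.4 and 320.3 ± 21.5 RPKM (limma adjusted p = 0.505). The complex III median log2 fold change of 0.15 rested on single libraries: it was 0.24 without primed replicate 1 and 0.07 without primed replicate 3.

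In complex IV, 13 of 15 members were tested, 1 was higher and none was lower by limma (at an unadjusted p under 0.05, 5 higher and 0 lower), with 11 of 13 log2 fold changes above 0 and a median of 0.15. COX6B1, which lies between the monomers of the dimer on the intermembrane space side, was the called member. It was at 149, 152, 149.5 and 155 RPKM in primed cells and at 213, 179, 184 and 174 RPKM in dome-shaped libraries. The primed values lay close together, below every dome-shaped value, and dome-shaped replicate 1 was the highest (log2 fold change 0.30, SE 0.07, limma adjusted p = 0.0269). The call was lost without dome-shaped replicates 2 or 3 or any 1 primed library (adjusted p 0.0528 to 0.0743) and with the block (0.0974).

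The most abundant member of the whole set was COX7C, a small subunit on a row of only 192 bases. It stood at 2076, 1955, 1959 and 1985 RPKM in primed cells and 2434, 1745, 1829 and 2149.8 RPKM in dome-shaped libraries. Dome-shaped libraries lay on both sides of the primed range (log2 fold change 0.02, SE 0.11, limma adjusted p = 0.917). COX4I1 followed within complex IV at 421 ± 9.49 and 446 ± 49.8 RPKM (SD, n = 4; limma adjusted p = 0.563), then COX6A1 at 344 ± 6.88 and 384 ± 27.7 RPKM (limma adjusted p = 0.156).

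Several complex IV subunits come as isoform pairs, a general form and a form tied to a tissue, and in both groups the general form held most of the RPKM of the COX4, COX6A and COX6B pairs. COX4I2, the form known from lung and low oxygen, made up 0.377% to 0.963% of the COX4 pair in primed and 0.0697% to 0.616% in dome-shaped libraries. COX6B2, the testis form, made up 1.4% to 5.49% and 0.346% to 3.14% of its pair. COX6A2, the form of heart and skeletal muscle, was listed at 0 in 6 of 8 libraries and reached at most 0.0448% of its pair. COX4I2 and COX6B2 varied by several fold within each group, and neither was called (limma adjusted p = 0.392 and 0.345). In the library with the fewest they held 2 and 5 implied reads, so the low ends of their shares are uncertain.

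COX7A1, the muscle form of subunit 7A, was above the tissue forms just named in every library, though COX6B2 reached 8.97 RPKM in primed replicate 4. The COX7A1 values were 10.6, 11.9, 12.9 and 13.8 RPKM in primed cells and 16.2, 15.2, 15.3 and 14.8 RPKM in dome-shaped libraries. Every dome-shaped library was above every primed one (log2 fold change 0.31, SE 0.10, limma adjusted p = 0.08). Muscle markers were called in both directions: of 8 matched genes, DES was higher and TNNT2 lower, 3 (MYH6, MYH7 and MYOD1) were below 1 RPKM in every library, and the summed level was 160 to 417 RPKM in primed cells and 291 to 403 RPKM in dome-shaped libraries. The part of muscle-like cells in the COX7A1 level was not tested. COX7A2, the general form, sat on a row of 8740 bases at 2.03 to 3.89 RPKM, so its level per length is uncertain. COX7A2L, which takes part in joining complexes III and IV, stood at 79.8 ± 3.26 and 98.4 ± 12.6 RPKM with separate groups (log2 fold change 0.29, SE 0.09, limma adjusted p = 0.0672). COX7B, a small membrane subunit, was at 212 ± 10.4 and 242 ± 18.9 RPKM (limma adjusted p = 0.12).

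COX8A, the general form of the smallest subunit, lay outside the name rule because its best match had no protein name. It stood at 135 ± 10.7 and 169 ± 20.1 RPKM (SD, n = 4; log2 fold change 0.32, SE 0.09, limma adjusted p = 0.0504).

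**Figure D3:**
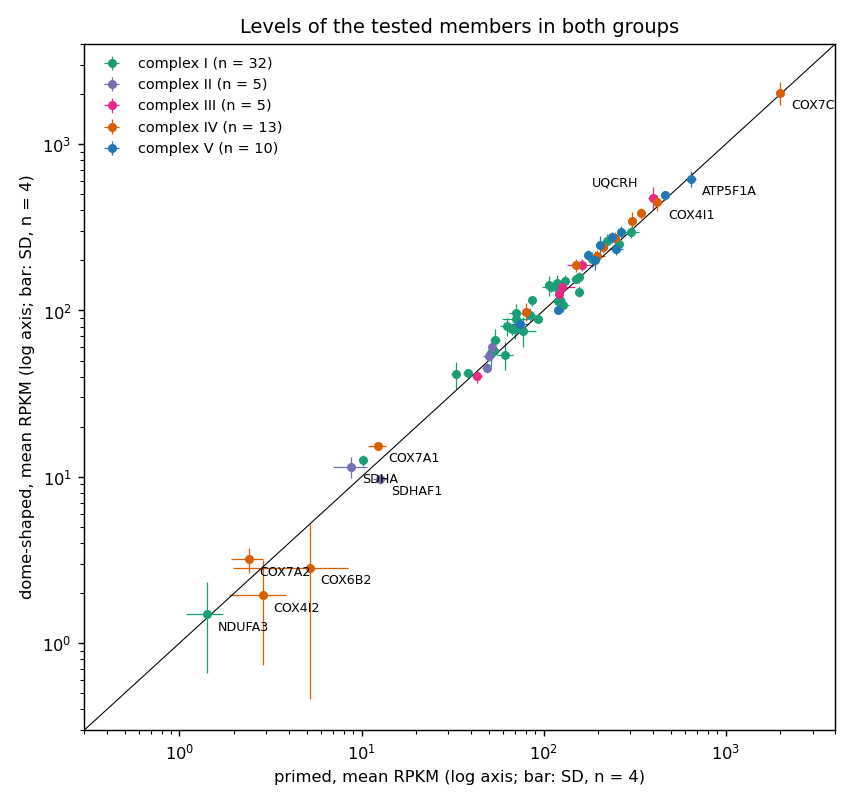
Mean RPKM of the 65 tested nuclear members in primed (x) and dome-shaped (y) cells on log axes, coloured by complex, with SD bars (n = 4 each) and a line of equality. COX7C lies at the top with means of 1994 and 2039.5 RPKM, and NDUFA3, COX4I2, COX7A2 and COX6B2 lie at the bottom.

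Complex V had 10 tested members of 11, with 1 higher and 1 lower, and these 2 belong to the same structure, the central stalk that turns inside the catalytic head. ATP5F1C, the gamma subunit and shaft of the stalk, was at 177, 182, 169 and 173 RPKM in primed cells and at 234, 222, 202 and 209 RPKM in dome-shaped libraries. All dome-shaped libraries were above all primed ones (log2 fold change 0.31, SE 0.07, limma adjusted p = 0.0183). ATP5F1D, the delta subunit at the foot of the stalk, was at 118, 122, 115 and 125 RPKM in primed cells and at 99.6, 93.7, 105 and 105 RPKM in dome-shaped libraries. Here all primed libraries were above all dome-shaped ones (log2 fold change -0.25, SE 0.07, limma adjusted p = 0.0382). The third stalk subunit, ATP5F1E, stood at 251 ± 23.2 and 234 ± 18.8 RPKM and was not called (limma adjusted p = 0.473). ATP5F1C lost its call without dome-shaped replicate 2 or primed replicates 3 or 4 (adjusted p 0.0519 to 0.054) and with the block (0.071). ATP5F1D lost it without any 1 library other than dome-shaped replicate 4 (0.0539 to 0.111) and with the block (0.117).

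The catalytic head itself had the highest complex V levels. ATP5F1A, the alpha subunit, was at 617, 686, 594 and 671 RPKM in primed cells and 712, 553, 585 and 632 RPKM in dome-shaped libraries. ATP5F1B, the beta subunit that makes ATP, was at 486, 474, 467 and 433 RPKM in primed cells and 455, 487, 490 and 536 RPKM in dome-shaped libraries. Both overlapped between the groups, with log2 fold changes of -0.05 (SE 0.09) and 0.08 (SE 0.07) and a limma adjusted p of 0.729 and 0.479. The ATP5F1B row used here matched at 90.8% identity. Another row of that name, at 100% identity, had a mean of 173 RPKM over the 8 libraries, so reads may be split. The 5 tested members of the membrane part and outer stalk all had log2 fold changes above 0, with a median of 0.16 beside -0.05 for the 5 of the catalytic head and central stalk. Limma called 0 of them; at an unadjusted p under 0.05, 2 were higher and 0 lower. The largest was ATP5PO, which ties the outer stalk to the head, at 202.9 ± 7.08 and 247 ± 31.9 RPKM (log2 fold change 0.28, SE 0.09, limma adjusted p = 0.0715). ATP5PB, the b subunit of the outer stalk, was listed at 0 under the name rule. Another row matched to the ATP5PB symbol was higher in dome-shaped cells, at 112 ± 7.44 and 138 ± 4.58 RPKM (log2 fold change 0.30, SE 0.07, limma adjusted p = 0.0208; 0.0583 to 0.0668 without dome-shaped replicate 2 or primed replicates 2 or 4, and 0.0799 with the block).

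The c ring, which turns with the proton flow, was held by rows outside the name rule. ATP5MC1 stood at 470.3 ± 41.8 and 474 ± 62.8 RPKM (limma adjusted p = 0.976), and ATP5MC2 was listed at 0. ATP5MC3 was higher in dome-shaped cells at 16.7 ± 1.49 and 25 ± 4.99 RPKM (log2 fold change 0.54, SE 0.15, limma adjusted p = 0.0438), a call lost without any 1 library other than dome-shaped replicate 2 (0.0698 to 0.111), with the block (0.0998), under median-of-ratios scaling (0.0537) and with no filter on low values (0.0678). The 3 genes encode the same mature protein, and reads may be split among them.

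Across libraries the members did not move evenly. Dome-shaped replicate 1 was the highest of the 8 libraries for 43 of the 65 tested members, beside 23.5% of all genes tested, and it lay above every primed library for 48. Dome-shaped replicate 2 lay above every primed library for 23 members, replicate 3 for 30 and replicate 4 for 37. As shares of members these are 73.8%, 35.4%, 46.2% and 56.9%, beside 36.7%, 35.1%, 32.4% and 25% of all genes tested. The share of members in dome-shaped replicate 2 was thus close to that of all genes.

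The median deviation of a library's members from their mean over all 8 libraries showed the same pattern. It was 0.228 in dome-shaped replicate 1, -0.038 in replicate 2, 0.021 in replicate 3 and 0.061 in replicate 4 on the log2 scale, and -0.074 to -0.052 in the primed libraries. All genes tested had 0.032 in dome-shaped replicate 1. Complexes I, IV and V had 0.240, 0.234 and 0.227 in that library, against 0.107 for complex III and 0.068 for complex II. Without dome-shaped replicate 1 the median log2 fold change was 0.09 for complex I, 0.12 for II, 0.14 for III, 0.10 for IV and 0.10 for V, and 4 members were called higher and 2 lower. Without dome-shaped replicate 4, which stood apart over all genes, 6 were higher and 3 lower.

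**Figure D4:**
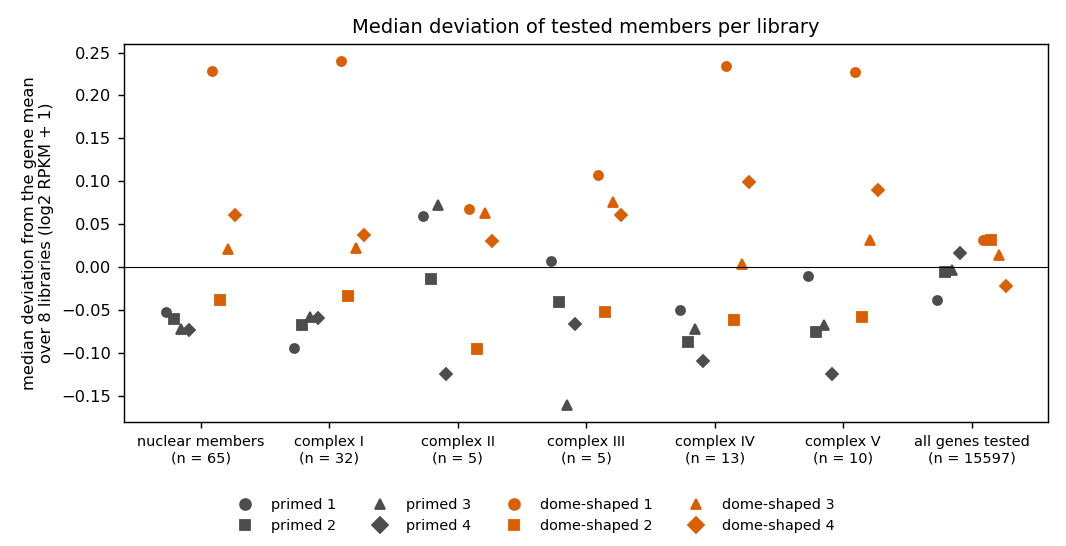
Median deviation of tested members from their own mean over the 8 libraries (log2 of RPKM + 1), for all nuclear members, each complex and all genes tested, with 1 marker per library. Dome-shaped replicate 1 (orange circle) lies near 0.23 for all members and for complexes I, IV and V, while dome-shaped replicate 2 (orange square) lies below 0 in every set of members.

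Spread within a group was small for members. Their median coefficient of variation was 5.91% in primed and 9.11% in dome-shaped libraries, beside 13.8% and 16.7% for all genes tested, and it was larger in dome-shaped cells for 48 of 65 members (73.8%, beside 61.3% of all genes tested). The tested members are highly expressed (median 119 RPKM, beside 12.9 for all genes tested) and short (median row length 606 bases, beside 1603). Genes of at most 798 bases, which include 44 of the tested members, had a median log2 fold change of 0.03, and their median deviation in dome-shaped replicate 1 was 0.0625.

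The number of called members depended on single libraries. Leaving out 1 library gave 1 to 6 members called higher and 0 to 3 called lower, and using the number in the library titles as a block gave 1 higher and 0 lower. Median-of-ratios scaling gave 5 higher and 2 lower, and dropping the filter on low values 4 higher and 2 lower. Each of the 9 called members kept its sign under all 16 alternatives. The groups of these members do not overlap, so leaving out 1 library could not have turned a sign.

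**Figure D5:**
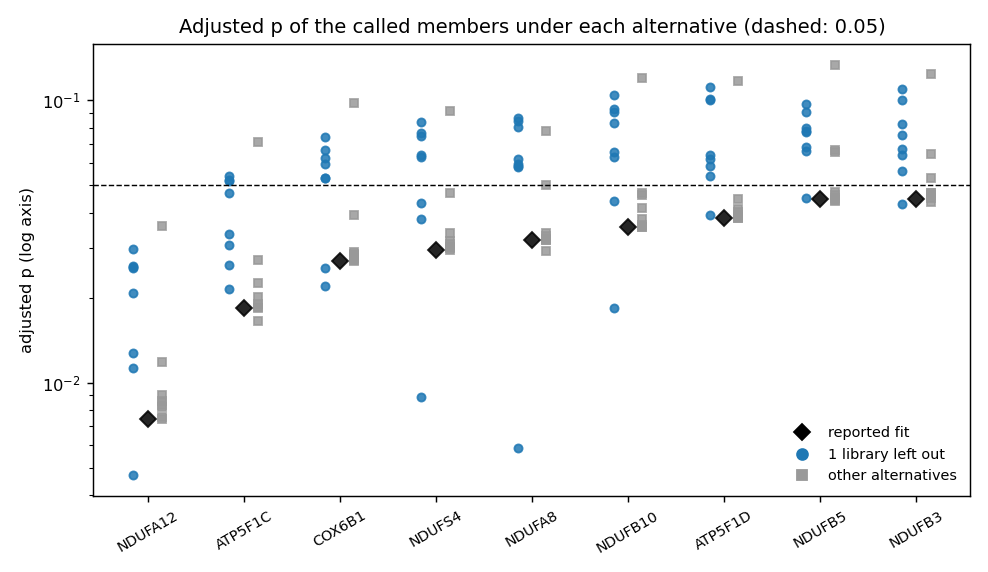
Adjusted p (log axis) of the 9 called members under the reported limma fit (black diamonds), with 1 library left out (blue circles) and under the other alternatives (grey squares); the dashed line is 0.05. All points of NDUFA12 lie below the line, and each of the other 8 members has points above it.

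The 4 mitochondrial DNA names taken by the rule were mostly at 0. MT-CO1, the catalytic subunit of complex IV, was at 557, 523, 387 and 604 RPKM in primed cells and 781, 605, 539 and 575 RPKM in dome-shaped libraries. The groups overlapped (log2 fold change 0.28, SE 0.16, limma adjusted p = 0.256), and MT-CYB, MT-CO2 and MT-CO3 were listed at 0 in all 8 libraries. Rows of other names were also found for mitochondrial genes, of which 3 were tested. MT-ND4, a proton-pumping core subunit of complex I, was at 479, 453, 468 and 503 RPKM in primed cells and 659, 676, 562 and 690.0 RPKM in dome-shaped libraries. These groups were separate (log2 fold change 0.44, SE 0.08, limma adjusted p = 0.00976), and the call held without any 1 library and with the block. MT-ND5 stood at 150 ± 6.90 and 182 ± 19.5 RPKM (limma adjusted p = 0.0713) and MT-ND4L at 52.3 ± 15.2 and 55.9 ± 15 RPKM (0.804). Most mitochondrial names were listed at or near 0, and these values do not stand for mitochondrial RNA as a whole.

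Nuclear subunits whose best match bore another style of name were looked up from a list of 37, of which 21 had a row and 20 were tested. Of these, 4 were higher and none lower by limma (at an unadjusted p under 0.05, 9 higher and 1 lower), with a median log2 fold change of 0.18. NDUFC2, an accessory subunit of the complex I membrane arm, was at 63.4, 56.7, 61.2 and 59.2 RPKM in primed cells and 88.9, 83.3, 87.2 and 82.6 RPKM in dome-shaped libraries. The groups were far apart for their spread, and dome-shaped replicate 1 did not stand out (log2 fold change 0.50, SE 0.07, limma adjusted p = 0.00287; at most 0.0144 without any 1 library). ATP5MJ, a small proteolipid of ATP synthase, was higher at 249.8 ± 10.8 and 326 ± 41.2 RPKM (limma adjusted p = 0.0269; 0.0564 to 0.0755 without dome-shaped replicate 2 or primed replicates 2, 3 or 4, and 0.0699 with the block), and ATP5PB and ATP5MC3 were given above. NDUFS1, the large core subunit that carries iron-sulfur clusters near the NADH site, stood at 43.5 ± 0.863 and 38.2 ± 3.85 RPKM (limma adjusted p = 0.158). Cytochrome c (CYCS) and cytochrome c1 (CYC1) stood at 202 ± 24.6 and 187 ± 9.61 RPKM in primed cells and 229 ± 33.0 and 173 ± 10.8 RPKM in dome-shaped ones, with a limma adjusted p of 0.347 and 0.288.

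Of 44 tested assembly factors, 1 was higher and 1 lower (unadjusted p under 0.05: 3 higher, 2 lower by limma), with a median log2 fold change of 0.02. COA7, a factor for complex IV assembly, was lower, at 29.1 ± 1.22 and 18.2 ± 2.48 RPKM (SD, n = 4; log2 fold change -0.65, SE 0.10, limma adjusted p = 0.00616; at most 0.0224 without any 1 library). COA8, which guards complex IV assembly against oxidation, was higher at 22.0 ± 1.04 and 28.4 ± 2.30 RPKM (limma adjusted p = 0.0293), lost without dome-shaped replicates 2 or 3 or primed replicates 1, 2 or 4 (0.0561 to 0.0837) and with the block (0.097).

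Regulators of mitochondrial DNA and biogenesis gave 0 higher and 1 lower of 21 tested by limma (unadjusted p under 0.05: 2 higher, 4 lower), with a median of -0.01. The lower one was POLG2, the accessory subunit of the mitochondrial DNA polymerase, at 44.8 ± 10.4 and 26.8 ± 4.75 RPKM (limma adjusted p = 0.0247; lost when dome-shaped replicate 1, 2 or 3 or primed replicate 2 or 4 was left out, 0.053 to 0.0703, and with the block, 0.0625). TFAM, which packages mitochondrial DNA, stood at 59.8 ± 5.56 and 57.9 ± 6.58 RPKM, and NRF1, a transcription factor of respiratory genes, at 9.48 ± 2.49 and 8.26 ± 2.10 RPKM (limma adjusted p = 0.777 and 0.589). PPARGC1A, a coactivator of mitochondrial biogenesis, was below the filter at 0.485 ± 0.227 and 0.988 ± 0.211 RPKM. Import factors and chaperones gave 0 calls of 31 by limma (unadjusted p under 0.05: 2 higher, 2 lower; median -0.0019).

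Of 23 tested genes of the TCA cycle and pyruvate dehydrogenase, 3 were higher and none lower (unadjusted p under 0.05: 5 higher, 1 lower by limma), with a median of 0.02. DLAT, a subunit of pyruvate dehydrogenase, stood at 54.9 ± 0.349 and 69.2 ± 3.01 RPKM (limma adjusted p = 0.0111; 0.0523 with the block). CS, citrate synthase, stood at 98.7 ± 5.11 and 119 ± 2.51 RPKM (limma adjusted p = 0.0229; lost without dome-shaped replicates 2 or 3 or primed replicates 2 or 3, 0.0548 to 0.0607, and with the block, 0.0757).

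Carriers, coenzyme Q enzymes and other electron entry genes gave 6 higher and 1 lower of 24 tested, with a median of 0.13. At an unadjusted p under 0.05 by limma, 8 were higher and 2 lower. Of all genes tested, 6.38% were called higher and 7.96% lower at the adjusted threshold. COQ8A, a kinase-like protein needed to make coenzyme Q, was lower at 12.7 ± 1.98 and 5.85 ± 0.691 RPKM (log2 fold change -0.99, SE 0.14, limma adjusted p = 0.0037; at most 0.0128 without any 1 library). VDAC1, the main pore of the outer membrane, was higher at 123.2 ± 8.02 and 166 ± 5.98 RPKM (log2 fold change 0.43, SE 0.07, limma adjusted p = 0.00589; at most 0.0249 without any 1 library). COQ7, an enzyme of coenzyme Q synthesis, and SLC25A4, an ADP/ATP carrier, were higher at 34.0 ± 3.77 and 44.8 ± 3.06 RPKM in primed cells and 43.1 ± 1.24 and 54.0 ± 0.326 RPKM in dome-shaped ones (limma adjusted p = 0.0346 and 0.0353). Leaving out any 1 of 6 libraries ended each of the last 2 calls (dome-shaped replicate 2, 3 or 4 or primed replicate 1, 2 or 4; COQ7 0.0505 to 0.0902, SLC25A4 0.052 to 0.0952), as did the block (0.0751 and 0.0971) and, for SLC25A4, median-of-ratios scaling (0.0547).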

How the data were processed

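The authors deposited 1 table of RPKM values for 8 libraries, with a query length, protein matches with their percent identity and score, and symbols for some genes; per the submitters' processing notes, TopHat2 2.0.9, Bowtie2 2.0.6 and HTSeq 0.6.1 were used. For the genome build and annotation, the sources used here name none. Per the labels' protocols the RNA was primed with random primers, with no strand-specific step recorded, so overlapping antisense reads cannot be told apart.

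Of 33138 lines, 17 without a gene name were dropped. The deposited percent identity of the first match chose the members; the deposited match score served only to give symbols to other genes (matches within 0.95 of the best score). Symbols came from the table, from RefSeq accessions (gene table of assembly T2T-MFA8v1.1) or from protein names paired by hand. SDHD appeared under 2 names and was counted once, and 25 proteins had more than 1 row, whose reads may be split. The columns of 3 libraries lacked the last characters of their titles and were assigned because no other title matched. The columns of other samples numbered 0.

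Genes that reached 1 RPKM in 4 or more libraries were compared on log2(RPKM + 1) with limma 3.58.1 in R 4.3.3 (lmFit, eBayes with trend, two-sided, no covariates). Benjamini-Hochberg adjustment ran over all 15597 genes, and calls needed an adjusted p under 0.05. Since 1 RPKM is added before the log, fold changes understate changes of low genes. Low values (under 50 reads) came out whole to 0.02 read for only 65.5% to 73.9%, so no count test was run. The script was tested on simulated data.

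The members and lists were chosen with earlier results of these data known, and the list of subunits outside the name rule was extended after the table was seen. Named were all called members, in each complex the 3 largest changes and 2 highest levels, all complex II subunits, isoform families and up to 4 called genes per list. Others are named for their role and were chosen after their values were seen. Alternatives were adding 0.1 or 0.5 in place of 1, dropping the filter or asking for a mean of 5 RPKM, scaling by quantiles or by median of ratios, leaving out each library, the number after CES in the titles as a block, summed rows, 95% identity and subunits only. No sequences are shown and promoter motifs were not searched. Results of 2 genes are not reported here.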

Additional observations from a re-analysis of the deposited data

Results flagged for a closer look

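The highest and lowest library of each group of 4 were examined for distance from the others, for 65 tested members, 29 other genes whose values are printed and the median deviations of 6 sets, 200 groups in all. In 6 groups 1 library lay far from the other 3, where chance alone picks out about 1 in 20 groups. The 6 of 200 groups are a smaller share than that, so they are listed only as a description.

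In 3 of them it was dome-shaped replicate 1, each time the highest. All 3 are complex I accessory subunits, as are 24 of the 65 tested members. NDUFB3 had 95.2 RPKM there, against 74.3 to 76.3 RPKM in dome-shaped replicates 2 to 4. NDUFA1 had 105.6 RPKM, against 82.0 to 84.5 RPKM, and NDUFS5 had 303.3 RPKM, against 244.6 to 249.6 RPKM.

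In the other 3 it was a primed library, again the highest. COX8A had 150.4 RPKM in primed replicate 1, against 127.7 to 130.5 RPKM in the other primed libraries. NDUFS1 had 44.77 RPKM in primed replicate 1, against 43.00 to 43.14 RPKM, and DLAT had 55.39 RPKM in primed replicate 3, against 54.62 to 54.75 RPKM. The last 2 differences are small beside the level of the gene.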

How the results depend on the processing

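Over all genes, leaving out 1 library gave 381 to 1289 called higher and 655 to 1441 lower, beside 995 and 1242. For the members it gave 1 to 6 higher and 0 to 3 lower, beside 7 and 2. Fewer libraries enter those fits. The median log2 fold change ranged from 0.09 to 0.19 for complex I, 0.05 to 0.13 for II, 0.0656 to 0.2434 for III, 0.10 to 0.20 for IV and 0.09 to 0.18 for V. With no filter on low values 4 members were higher; more genes enter the adjustment. With subunits only, the complex II median was 0.20 in place of 0.09, over 3 tested genes.

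Taking the number that follows CES as a replicate block, 303 genes were higher and 593 lower, and 1 and 0 members. The labels do not say what the number means. Deviations from the group mean correlated at -0.098 to 0.125 between primed and dome-shaped libraries with the same number. Between those with different numbers the range was -0.223 to 0.201, which encloses the first. Some libraries within a group share a number, so these deviations lose part of any shared signal. What libraries with the same number have in common was not tested. The cause was not tested. Of 493 single values of named members under an alternative, 429 kept their side of the threshold, 61 lost a call and 3 gained one. Most of these values belong to members that were not called, which had no call to lose. No value changed sign where either fit called the member. Signs of members that were not called could turn. The log2 fold change of COX7C, for example, ranged from -0.0954 to 0.0911.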

Other observations

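Genes outside the set were ranked by the likeness of their log2 values to the mean of the complex I subunits over the 8 libraries, among 5852 tested genes with a symbol. The 5 highest Pearson r were ALG13 (0.989), PFDN5 (0.974), NUP62CL (0.97), RPL17-C18ORF32 (0.97) and RSAD1 (0.97). ALG13, which takes part in protein glycosylation, stood at 14.8 ± 0.652 RPKM in primed cells and 21.4 ± 8.03 RPKM in dome-shaped ones (SD, n = 4 each), and PFDN5, a prefoldin chaperone subunit, at 145 ± 6.39 and 165 ± 28.1 RPKM. For complex IV the 5 highest were ZNF16 (0.963), PCK2 (0.95), TOMM7 (0.924), SAT2 (0.918) and RHBDL1 (0.916). PCK2, mitochondrial phosphoenolpyruvate carboxykinase, stood at 12.9 ± 0.568 and 23.7 ± 16.6 RPKM. None of these 10 genes was called by limma between the groups (adjusted p 0.119 to 0.861). The 8 points of each r share their libraries, so anything that raises many genes in 1 library, such as dome-shaped replicate 1, enters every r.

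Markers of other cell types were measured in the same libraries. Of 10 fibroblast markers, 1 was lower and 0 were higher by limma, with a summed level of 154 to 314 RPKM in primed cells and 124 to 209 RPKM in dome-shaped libraries; DCN, POSTN and FAP were below 1 RPKM in every library. Of 6 matched neural markers 0 were called, with a summed level of 219 to 435 and 251 to 370 RPKM, and NEUROD1 and DCX were below 1 RPKM throughout. Of 5 endoderm markers 2 were lower and 0 higher (43.0 to 86.5 and 4.95 to 36.3 RPKM), and of 5 trophoblast markers 1 was lower and 0 higher (19.4 to 92.6 and 4.98 to 10.1 RPKM), with CGA below 1 RPKM in every library. Of 7 matched hypoxia response genes 1 was higher (BNIP3) and 2 were lower (CA9 and ADM), with a summed level of 124 to 167 and 154 to 232 RPKM. The part of any of these in the levels of the respiratory genes was not tested.

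Just outside the identity limit lay a row named as COX7A3 at 83% identity, with a mean of 249 RPKM over the 8 libraries. The row of the same name just inside it, at 85.3%, was listed at 0 in every library.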
